A study of Mus musculus with 6 samples.

Results

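The gamma-secretase subunits, 2 Notch receptors and the sheddase Adam10 were examined in macrophages (MPs) sorted from injured skeletal muscle, as 9 genes chosen by name: Aph1a, Aph1b, Aph1c, Psen2, Ncstn, Psenen, Notch1, Notch2 and Adam10. All 9 are among the 13008 genes measured, and each had at least 83 reads in every sample. They were chosen with the values of this comparison known, with Aph1b set against its paralogs, so that differences between the groups are described for the 9 genes without a test. RNA-seq was performed on F4/80+/Ly6CLow MPs on day 5 after cardiotoxin injury, in 3 Control and 3 Cripto KO samples from male C57BL/6J mice aged 3 months. Cripto KO MPs came from Tg:LysMCre::Cripto-/- mice, in which Cre is driven by the lysozyme M locus in the myeloid lineage, so that deletion depends on where and how far Cre acts in the sorted cells. Control MPs are labelled wild type. The study's methods describe sorting by GFP, with the R26mTmG reporter and LysMCre in both groups. Whether the 3 Control samples share that genotype was not settled by the labels. Their Lyz2 values, given below, were not alike, and the samples were kept as the group the labels give. Expression of the deleted gene was not analysed here and gives no check of the labels.

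Gamma-secretase is a membrane protease that cuts within the membrane-spanning part of its substrates. It is built of a catalytic presenilin, the glycoprotein nicastrin (Ncstn), a scaffold subunit of the Aph1 family and the small subunit Pen-2 (Psenen). Notch receptors are cut first outside the membrane by ADAM10 and then by gamma-secretase, which frees the intracellular domain that acts with Rbpj in the nucleus. Mice carry 3 Aph1 genes, and each complex holds a single Aph1 protein. In macrophages, Notch signaling is known for its part in inflammatory activation and in cell fate.

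Values are normalized signals, that is, reads with 0.5 added, scaled to a normalized library of 1000000 reads, and are compared between genes only after division by exon length. Whole reads were recovered from these signals, and their totals were between 12688968 and 15659847 per sample. Macrophage markers were high in all samples, with 9 listed markers summing to between 15790 and 17355. Markers of Ly6C high monocytes (6 genes) summed to between 85.4 and 112, of endothelial cells (10 genes) to between 63.8 and 76.8, of muscle fibers (8 genes) to between 19.7 and 86.4, of smooth muscle cells and pericytes (5 genes) to between 36.5 and 49.7, and of satellite cells and myoblasts (4 genes) to between 8.57 and 17.4. The 6 neutrophil markers summed to between 7.73 and 11.5, and the 3 lymphocyte markers to between 6.16 and 11.0, with 2 and 1 of them above 3 reads in all samples. Only the sum of the 10 fibroblast markers separated the groups, with 482 to 509 in Control, against 572 to 617 in Cripto KO samples. Col1a1, Col1a2 and Col3a1, which encode fibrillar collagen chains, made up most of this sum and separated the groups with Pdgfra, whereas the other 6 markers, among them Dcn and Lum, overlapped. In other lists single markers also did not overlap, leaving out those with 0 reads in all samples. Control was above for Ly6c2, Myh4 and Tnni2. Control was below for Tie1, S100a8, Acta2 and Mrc1 (575 to 602 in Control, against 616 to 677 in Cripto KO samples). Of all genes, 14.5% did not overlap. The part of these markers in the differences below was not tested. Single Control libraries stood apart, as Xist was 171 in Control replicate 1 and at most 0.885 in the others, although all mice are labelled male, and Lyz2 was 11066 in Control replicate 2 and at most 28.3 in the others. Lyz2 is the lysozyme M gene, whose locus carries Cre, so that the 3 Control libraries were not alike at the gene that drives the deletion, and the part of this in the results was not tested.

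Per kilobase of exon, the 9 genes spanned levels from 77.8 ± 3.99 (SD, n = 6) for Psenen to 2.00 ± 0.88 (SD, n = 6) for Aph1b. The SD of Aph1b includes the difference between its group means, 2.78 in Control and 1.23 in Cripto KO samples. Over both groups the order was Psenen, Aph1a (41.8 ± 1.94), Ncstn (41.2 ± 2.28), Adam10 (20.04 ± 1.66), Aph1c (17.2 ± 1.32), Psen2 (12.9 ± 0.476), Notch2 (11.4 ± 1.48), Notch1 (4.58 ± 0.567) and Aph1b, where the values are means of the level per kilobase with the SD over 6 samples. Thus Aph1a was the most abundant Aph1 gene, and Aph1b the lowest of the 9 genes in both groups. Levels of neighbours in this order were compared within samples with an exact sign-flip permutation test, two-sided, over the 6 samples and 8 pairs. The pairs come from the order in these same samples, so the p-values describe how steadily it held over them. In 6 pairs the same gene was higher in 6 of 6 samples (p = 0.03125, the smallest p that 6 samples allow, exact permutation test; adjusted p = 0.0417). The others did not separate beyond their spread. Aph1a was above Ncstn in 4 of 6 samples, 1.02-fold on average (p = 0.312, adjusted p = 0.312, exact permutation test), and Psen2 was above Notch2 in 4 of 6 samples, 1.14-fold (p = 0.125, adjusted p = 0.143, exact permutation test). With the length of the longest transcript in place of all exons, Ncstn stood above Aph1a, and Psen2 above both Adam10 and Aph1c. These places thus depend on which transcripts are used. Aph1c above Psen2 was 1 of the 6 pairs that passed, as the test covers the spread of samples and not the choice of length. Psenen, Notch2, Notch1 and Aph1b kept their places. The lengths are those of the annotation, and which transcripts the cells made was not analysed here.

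**Figure D1:**
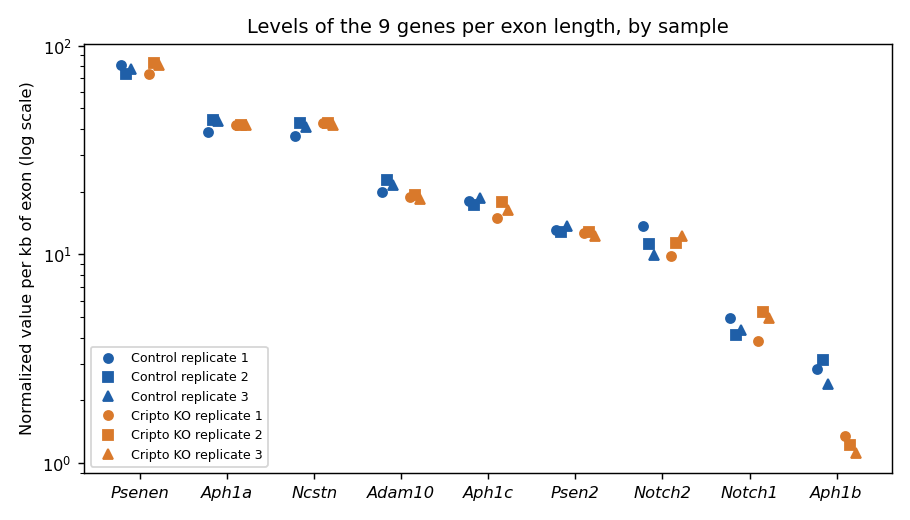
Normalized value per kilobase of exon (log axis) for the 9 genes in the 3 Control samples (blue) and the 3 Cripto KO samples (orange), with 1 point per sample and the replicate shown by the shape. Aph1b was lowest, at 2.39 to 3.12 in Control, against 1.11 to 1.35 in Cripto KO samples, and the points of the other genes lie close together or intermixed across the groups.

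The Aph1 genes share sequence to unequal degrees, which bears on how their reads can be told apart. On GRCm38, Aph1b (ENSMUSG00000032375) lies on the minus strand of chromosome 9 from 66775202 to 66795490, and Aph1c (ENSMUSG00000053040) follows on the same strand from 66814994 to 66834726. Aph1a (ENSMUSG00000015750) lies on chromosome 3 from 95893969 to 95898288. The coding sequences of Aph1b (771 bases without the stop codon) and Aph1c (774 bases) were identical at 742 of 774 aligned positions (95.9%), whereas Aph1a and Aph1b were identical at 60.6%. Aph1b and Aph1c differ most near the start of the coding sequence. The stretch below covers coding bases 4 to 93 of each, from the annotated GENCODE transcripts, with the 12 differing bases in capitals.
Aph1b: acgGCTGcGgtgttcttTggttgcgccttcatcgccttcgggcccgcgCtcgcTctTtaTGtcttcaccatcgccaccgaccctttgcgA
Aph1c: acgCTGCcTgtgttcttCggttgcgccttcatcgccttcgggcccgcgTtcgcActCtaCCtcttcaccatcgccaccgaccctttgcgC
Further on they hold a run of 341 identical bases. The next stretch is shown for its start, with coding bases 337 to 516 of Aph1b and 340 to 519 of Aph1c, where the base in capitals is the only one that differs.
Aph1b: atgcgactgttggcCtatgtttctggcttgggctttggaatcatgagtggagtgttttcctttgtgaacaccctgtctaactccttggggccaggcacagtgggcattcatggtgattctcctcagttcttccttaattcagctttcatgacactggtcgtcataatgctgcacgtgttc
Aph1c: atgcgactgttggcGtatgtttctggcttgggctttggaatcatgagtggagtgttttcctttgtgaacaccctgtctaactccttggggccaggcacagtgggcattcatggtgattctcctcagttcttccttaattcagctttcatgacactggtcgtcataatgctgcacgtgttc
Reads from within the run cannot be assigned to either gene by sequence. In words of 31 bases, 396 of 741 coding words of Aph1b (53.4%) also occur in Aph1c and 0 occur in Aph1a. Over whole transcripts, the share falls to 1281 of 5190 words (24.7%), since the coding sequence is a small part of each transcript. Aph1a shares 21.9% of its words with Gm15429. The values of Aph1b and Aph1c therefore rest in part on how ambiguous reads were split by RSEM, the quantifier used for these data.

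Aph1b was the member with the largest difference between the groups. Its normalized value was 14.5, 16.1 and 12.4 in Control replicates 1, 2 and 3, and 6.95, 6.34 and 5.76 in Cripto KO replicates 1, 2 and 3. Every Control sample was above every Cripto KO sample, and the gap between the groups was wider than the spread within either. The means were 14.3 ± 1.87 (SD, n = 3) and 6.35 ± 0.599 (SD, n = 3), a log2 fold change (Control minus Cripto KO) of 1.17 with a standard error (SE) of 0.15, or 2.25-fold. These values rest on 197, 212 and 151 reads in Control and on 109, 89 and 83 reads in Cripto KO samples. In bulk RNA, less RNA per cell and fewer cells that express the gene cannot be told apart. The limma fit over all genes placed 17 genes, or 0.131% of 13008, under an adjusted p of 0.05, and Aph1b was the only member among them. Since the gene was chosen with this contrast known, nothing is read from that count. Without Control replicate 1 Aph1b was among the called genes again (log2 fold change 1.16). Without Control replicate 2 (1.08), Control replicate 3 (1.27) or Cripto KO replicates 1, 2 or 3 (1.24, 1.17 and 1.102) it was not, although the log2 fold change moved little. With the replicate number as a block, the log2 fold change was 1.17 and Aph1b was not called, but the Control samples are numbered in another order in the study's supplement, so that the block rests on numbers that differ between sources.

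Aph1a and Aph1c did not show a difference of this size. Aph1a, which encodes the widely expressed Aph1 scaffold, was 133, 151 and 150 in Control, against 144, 144 and 144 in Cripto KO replicates 1, 2 and 3. The Cripto KO values lie within the range of the Control values, with a log2 fold change of 0.00 (standard error 0.07). Aph1c was 93.3, 89.5 and 97.2 in Control, against 78.1, 93.1 and 85.3 in Cripto KO replicates 1, 2 and 3. Its groups overlap through Cripto KO replicate 2, and the log2 fold change was 0.13 (standard error 0.08). On the group means, Control was above the Cripto KO mean by 7.98 for Aph1b and by 7.85 for Aph1c, of which the latter lies within the spread of its samples. The unscaled reads of Aph1c were 1267, 1182 and 1191 in Control, against 1229, 1315 and 1237 in the deeper Cripto KO libraries. A sum of both genes does not depend on how reads are split between them. Aph1b and Aph1c together were 107.7 ± 2.02 (SD, n = 3) in Control, against 91.8 ± 7.25 (SD, n = 3) in Cripto KO samples, with 106 to 109.6 and 85.0 to 99.5 and no overlap, and a log2 fold change of 0.23 (standard error 0.07), which was 0.25 without Control replicate 2. With Aph1a added, the sums were 240 to 259.9 in Control, against 229 to 243 in Cripto KO samples and overlapped (log2 fold change 0.10, standard error 0.04).

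Within each sample, the 3 genes can be set side by side without regard to scaling. Of all Aph1 reads, Aph1b took 6.04% (95% exact Clopper-Pearson interval 5.24 to 6.91%) in Control replicate 1, 6.25% (5.46 to 7.11%) in Control replicate 2 and 4.74% (4.03 to 5.54%) in Control replicate 3. In Cripto KO replicates 1, 2 and 3 it took 3.02% (2.48 to 3.63%), 2.59% (2.08 to 3.18%) and 2.44% (1.95 to 3.01%). Each Control interval lies above each Cripto KO interval. These intervals cover counting error only, over 3183 to 3612 Aph1 reads per sample. They leave out the spread between samples and how ambiguous reads were split, so they are no test of the groups. The mean share was 5.68% ± 0.813 (SD, n = 3) in Control, against 2.68% ± 0.300 (SD, n = 3) in Cripto KO samples. Aph1c was 5.56 to 7.86 times as high as Aph1b in Control and 11.2 to 14.8 times in Cripto KO samples, and their exon lengths are nearly the same (5205 and 5163 bases). By contrast, the ratio of Aph1a to Aph1c was 1.42 to 1.69 in Control, against 1.55 to 1.85 in Cripto KO samples, and the groups overlap. The share of Aph1a was 55.1% to 58.9% in Control, against 59.2% to 63.0% in Cripto KO samples, and that of Aph1c was 34.0% to 38.8% over all samples, so that Aph1a and Aph1c made up nearly all Aph1 reads in both groups.

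**Figure D2:**
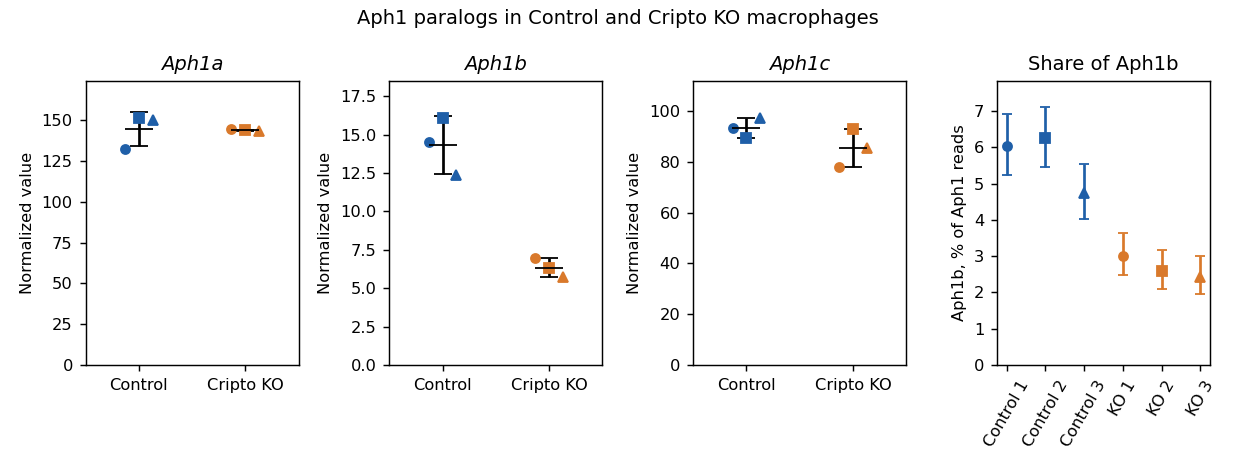
Normalized values of Aph1a, Aph1b and Aph1c (first 3 panels, linear axes from 0) and the percent of Aph1 reads that fell on Aph1b (last panel) in Control (blue) and Cripto KO (orange) samples. Points are samples, black bars are means ± SD of 3 samples, and bars in the last panel are 95% exact binomial intervals. The Control points of Aph1b (12.4 to 16.1) all lie above its Cripto KO points (5.76 to 6.95), whereas the groups overlap for Aph1a and Aph1c.

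The other subunits of the complex were close in both groups. Psen2, a catalytic presenilin (chromosome 1 from 180227004 to 180263438), was 56.5, 55.7 and 59.4 in Control, against 54.9, 55.7 and 53.1 in Cripto KO replicates 1, 2 and 3. Only Cripto KO replicate 2 reached into the Control range, and the log2 fold change was 0.07 (standard error 0.07). Ncstn (chromosome 1 from 172066013 to 172082795) was 147, 169.6 and 161 in Control, against 169.8, 169.9 and 165 in Cripto KO samples. Control replicate 1 was lowest, and the log2 fold change of -0.08 (standard error 0.07) was -0.02 without it. Psenen (chromosome 7 from 30561863 to 30563627) was 102, 92.8 and 98.2 in Control, against 93.6, 104.6 and 103 in Cripto KO samples, which overlap (log2 fold change -0.04, standard error 0.07). Psenen shares 20.4% of its words with the pseudogene Gm12396, so part of its reads is uncertain. Gm12396 itself was 18.1 to 21.002 in Control, against 11.5 to 17.7 in Cripto KO samples, with no overlap of the groups. The Control-to-Cripto KO log2 fold changes of Psen2, Ncstn and Psenen thus stayed within -0.08 and 0.07.

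Notch1 and Notch2 varied more among samples of one group than between the groups. Notch1 (chromosome 2 from 26457903 to 26516663) was 70.8, 58.2 and 62.0 in Control, against 54.6, 75.1 and 70.3 in Cripto KO samples. Its lowest and its highest value were both in the Cripto KO group, and the log2 fold change of -0.06 (standard error 0.12) turned to 0.03 without Cripto KO replicate 2. Notch2 (chromosome 3 from 98013527 to 98150361) was 148, 121 and 107.0 in Control, against 106.4, 122 and 133 in Cripto KO samples. Control replicate 1 was highest, and the log2 fold change of 0.05 (standard error 0.12) was -0.07 without it. Notch2 shares 4.28% of its words with Gm42820, which had at most 10 reads in any sample. On the level per kilobase, Notch2 was 2.49 times Notch1 on average and above it in 6 of 6 samples.

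Adam10, the sheddase that makes the first cut in Notch (chromosome 9 from 70678997 to 70780229), was 97.6, 111 and 105 in Control, against 92.2, 94.1 and 90.4 in Cripto KO replicates 1, 2 and 3. All Control samples were above all Cripto KO samples, but the nearest ones, Control replicate 1 and Cripto KO replicate 2, differed by less than the spread within Control. The means were 104.7 ± 6.90 (SD, n = 3) and 92.2 ± 1.86 (SD, n = 3), a log2 fold change of 0.18 (standard error 0.07) or 1.13-fold. It stood at 0.23 when Control replicate 1, and at 0.13 when Control replicate 2, was left out, the libraries in which Xist and Lyz2 stood apart. Together with Aph1b this made 2 of 9 genes whose groups did not overlap, with Control above in both. Of all genes, 14.5% did not overlap between the groups and 8.02% did so with Control above, and nothing is read from the count of members. Over the 9 genes the median log2 fold change was 0.05, against 0.01 over all genes. The 8 genes other than Aph1b ranged from -0.08 to 0.18.

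**Figure D3:**
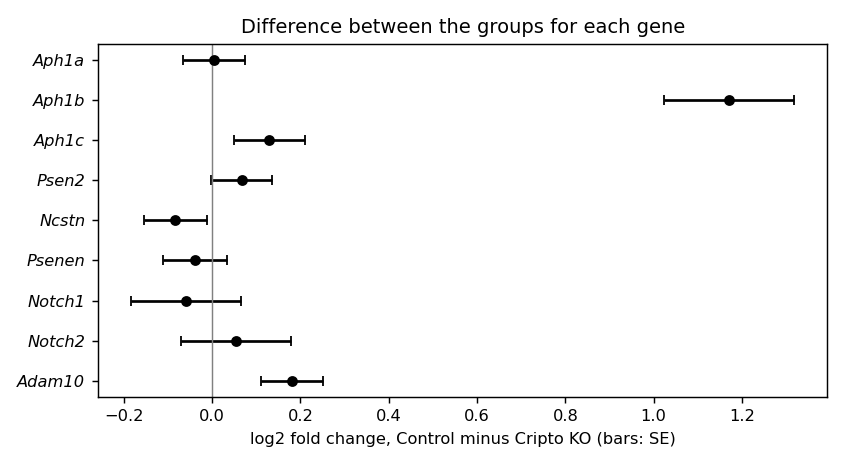
Log2 fold change, Control minus Cripto KO, for each of the 9 genes, with bars for the standard error from the limma fit over all 13008 genes. Aph1b stands at 1.17, and the other 8 genes lie between -0.08 and 0.18.

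The genes that act around gamma-secretase and Notch were taken from 6 lists that do not hold the 9 genes. The lists were chosen with earlier results of these data known, so the counts below are descriptions. Of 107 listed genes, 94 were measured under a name that no other gene shares, and only these were used. In the limma fit over all genes, 0 of these 94 had an adjusted p under 0.05 (the smallest was 0.479), against 0.131% of all genes. An unadjusted p under 0.05 was found for 6 (6.38%), against 8.59% of all genes. edgeR and DESeq2 on the recovered reads likewise called 0 of the 94, and 17 and 71 genes over all. With so few genes called over all, 0 of 94 does not show that the pathway was unchanged. The median log2 fold change of the 94 genes was 0.04, with 54 of 94 above 0. Among genes of gamma-secretase assembly and modulation, 1 of 4 had a low unadjusted p, meaning under 0.05 here and for the other lists. Gsap, which encodes the gamma-secretase activating protein, was 26.5 ± 3.25 (SD, n = 3) in Control, against 31.6 ± 2.63 (SD, n = 3) in Cripto KO samples (log2 fold change -0.26 with an SE of 0.11, limma adjusted p = 0.574), and the groups overlap. Tmed10, a trafficking protein that binds the complex, was 338 ± 15.3 and 343 ± 10.7 (SD, n = 3 each). Ifitm3, an interferon-induced protein known to bind gamma-secretase, was 331 ± 85.2 and 296 ± 13.3 (SD, n = 3 each), with most of its spread within Control.

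None of 20 genes listed with sheddases, other proteases and partner tetraspanins had a low unadjusted p, and their median log2 fold change was 0.03. The list also holds Rhbdf1, Rhbdf2 and the inhibitors Timp1 and Timp3, which are not proteases. Adam8 and the proprotein convertase Furin, which processes Notch and ADAM precursors, had the highest normalized values of the list (not corrected for length), at 613 ± 111 and 363 ± 41.0 in Control, against 622 ± 78.4 and 334 ± 42.5 in Cripto KO samples (SD, n = 3 each). Tspan33, a tetraspanin partner of ADAM10, was 6.20 ± 0.667 in Control, against 7.32 ± 0.351 in Cripto KO samples (SD, n = 3 each; log2 fold change -0.24, limma adjusted p = 0.694). Sppl3 had a log2 fold change of -0.11 and Rhbdf1 of -0.20 (limma adjusted p = 0.753 and 0.726). Among 5 Notch ligands and other receptors, 0 had a low unadjusted p. Jag1 was 38.0 ± 6.06 in Control, against 34.3 ± 1.05 in Cripto KO samples (SD, n = 3 each; limma adjusted p = 0.784). Of the other ligands, Dll4 was 2.02 ± 0.533 and 2.49 ± 0.387 and Jag2 was 6.86 ± 1.59 and 7.82 ± 2.63 (SD, n = 3 each). The receptors Notch3 and Notch4 had mean values of 3.08 and 4.83.

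Of 17 genes of Notch glycosylation and trafficking, 2 had a low unadjusted p, 1 in each direction. Dtx3, of the Deltex family of ubiquitin ligases, was 27.0 ± 5.77 in Control, against 38.9 ± 6.19 in Cripto KO samples (SD, n = 3 each), a log2 fold change of -0.54 (SE of 0.17, limma adjusted p = 0.479). Dtx3l, an interferon-inducible member of the same family, was 28.1 ± 3.36 and 21.4 ± 4.09 (SD, n = 3 each), a log2 fold change of 0.40 (SE of 0.15, limma adjusted p = 0.524). Neither passed over all genes. Neurl3, a ubiquitin ligase, and Lfng, which adds sugars to Notch, had the highest normalized values of the list, with log2 fold changes of 0.15 and 0.07. Of 22 nuclear effectors and targets, 1 had a low unadjusted p. This was Cdkn1a, which encodes the cell cycle inhibitor p21, at 704 ± 74.5 in Control, against 586 ± 74.0 in Cripto KO samples (SD, n = 3 each; log2 fold change 0.27 with an SE of 0.11, limma adjusted p = 0.54). Rbpj, the DNA-binding partner of Notch, was 170.7 ± 10.9 and 172.6 ± 2.32 (SD, n = 3 each; log2 fold change -0.02). Snw1 had a log2 fold change of 0.15 and Hes7, at 0.966 ± 0.198 in Control and 1.57 ± 0.348 in Cripto KO samples (SD, n = 3 each) without overlap, of -0.70 (limma adjusted p = 0.672 and 0.62).

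Of 26 genes listed as other substrates of gamma-secretase, 2 had a low unadjusted p, both with Control above. Il1r1, an interleukin-1 receptor, was 2.64 ± 0.431 in Control, against 1.66 ± 0.306 in Cripto KO samples (SD, n = 3 each; log2 fold change 0.67 with an SE of 0.26, limma adjusted p = 0.533). Sorl1, a sorting receptor, was 62.1 ± 5.84 and 51.1 ± 5.29 (SD, n = 3 each; log2 fold change 0.28 with an SE of 0.10, limma adjusted p = 0.51). Il6ra did not overlap between the groups, at 95.5 ± 5.75 and 85.7 ± 2.35 (SD, n = 3 each; log2 fold change 0.16, limma adjusted p = 0.588). The highest normalized values of the list were those of Itm2b, at 5116 ± 79.8 and 4776 ± 275, and Csf1r, the receptor for the macrophage growth factor CSF1, at 1720.3 ± 84.0 and 1676 ± 98.1 (SD, n = 3 each). The place of Itm2b among substrates of gamma-secretase is not established.

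**Figure D4:**
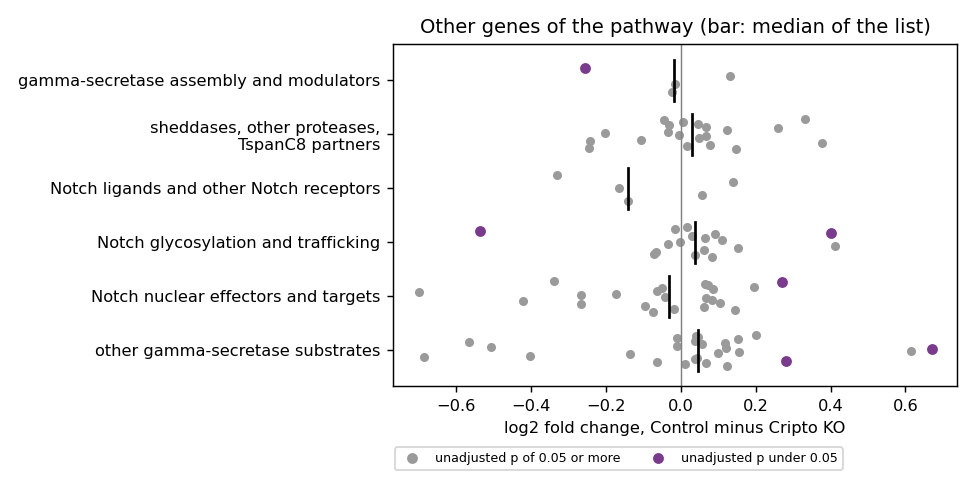
Log2 fold change, Control minus Cripto KO, of the 94 measured genes of 6 lists around gamma-secretase and Notch, with 1 point per gene and list and a black bar at each list's median. Purple points have an unadjusted p under 0.05 (limma), which 6 genes had, and 0 passed after adjustment over all genes.

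Aph1b, Aph1c and Adam10 lie on the same chromosome, and the genes around Aph1b were examined for comparable differences. Within 2 Mb of Aph1b there are 34 other measured genes. None of them had an adjusted p under 0.05 (limma), against 0.131% of all genes. An unadjusted p under 0.05 was found for 7 (20.6%), against 8.59% of all genes, and 3 of the 7 had Control above. The median log2 fold change of the 34 genes was -0.00, with 17 above 0. The nearest measured gene was Aph1c, at a distance of 19504 bases. Of the 5 genes with the smallest p, Vps13c, whose product carries lipids between membranes, was 32.5 ± 3.00 in Control, against 25.3 ± 1.61 in Cripto KO samples (SD, n = 3 each; log2 fold change 0.36, limma adjusted p = 0.415), and Oaz2, an inhibitor of polyamine synthesis, was 65.3 ± 4.61 and 53.4 ± 4.29 (SD, n = 3 each; log2 fold change 0.29, limma adjusted p = 0.443). Plekho2 had a log2 fold change of 0.17 and Tpm1 of -0.22 (limma adjusted p = 0.512 and 0.541). Ankdd1a had a log2 fold change of -2.14 (limma adjusted p = 0.483), on 6 reads in Control and 35 reads in Cripto KO samples. It was the only 1 of the 34 genes with a difference in either direction as large as that of Aph1b. Across all genes 290 had such a difference, 39 of them among the 9240 genes with a mean value of at least 5.

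**Figure D5:**
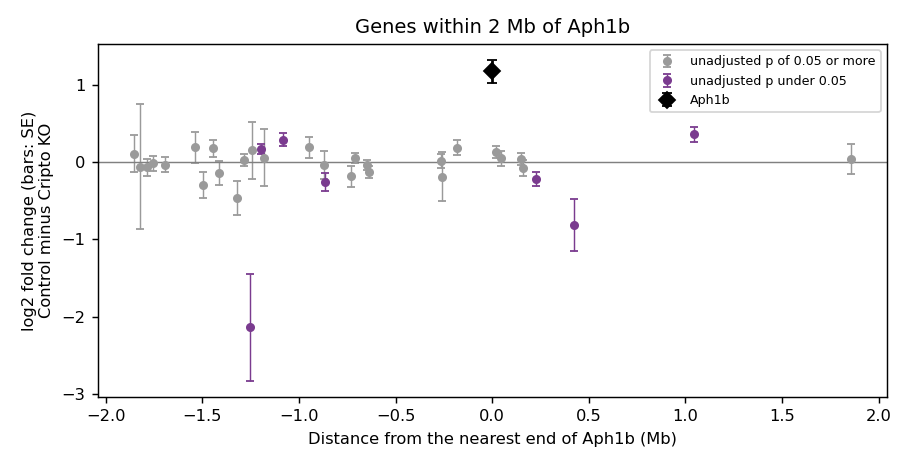
Log2 fold change, Control minus Cripto KO, with its standard error, of the 34 measured genes within 2 Mb of Aph1b against their distance from the nearest end of Aph1b in Mb (negative towards lower coordinates), with Aph1b as the black diamond. Purple points have an unadjusted p under 0.05 (limma), and 7 genes do, with signs in both directions.

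The genes whose values followed those of Aph1b most closely over the 6 samples were Prpsap2 (Pearson's r = 0.99), Gm8116 (0.988), Plcg2 (0.987), 2810006K23Rik (0.987) and Lrrk1 (0.984), out of 11959 genes with a mean value of at least 1. With 6 points in 2 groups these coefficients describe the samples only, and 185 genes had an r of at least 0.9. In all 5 the Control samples were above the Cripto KO samples, which follows from picking them by r with Aph1b. Over all genes the share was 8.02%, and nothing is read from the 5. The log2 fold changes were 0.21 for Prpsap2, 0.15 for Plcg2, 0.73 for 2810006K23Rik and 0.28 for Lrrk1. Gm8116 had 126 reads in Control and 0 reads in Cripto KO samples. It lies on chromosome 9 from 78820638 to 78821838, and the other 4 genes lie on chromosomes 11, 8, 5 and 7. The same coefficient was 0.50 for Aph1c, 0.86 for Adam10 and 0.03 for Aph1a.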

How the data were processed

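RNA-seq of F4/80+/Ly6CLow MPs was analysed in 3 Control and 3 Cripto KO samples. The authors trimmed reads with Cutadapt 1.7.1, quantified them on the mouse transcriptome (GRCm38) with RSEM 1.2.20 and normalized them with limma. The deposited values are a normalized signal, in which reads plus 0.5 are scaled per 1000000 reads of a normalized library size, and no value was 0. Dividing by the step of each sample gave whole reads for 100.0% of 78048 values (within 0.01 read). RSEM gives estimated counts, so they had been rounded before scaling.

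All 13008 genes were fitted together on the log2 scale, no pseudocount being added, with limma 3.58.1 in R 4.3.3 (eBayes, trend option), and p-values were adjusted by Benjamini-Hochberg. As alternatives, 0.5 or 1 was added to the values, genes with a mean under 1 were removed, samples were median centred or quantile normalized, the trend was dropped, the robust option or voom weights were used, edgeR 4.0.16 and DESeq2 1.42.0 were run on the reads, the replicate number entered as a block, and samples were dropped in turn. The members and lists were chosen with earlier results of these data known. Named are all members, and from each list the genes with an adjusted p under 0.05, the 3 with the smallest p and the 2 highest; of genes within 2 Mb of Aph1b, the 5 with the smallest p under 0.05; and the 5 with the highest Pearson's r to Aph1b on the log2 scale. Xist and Lyz2 were named for the libraries that stand apart. Positions, union exon lengths and transcripts are from GENCODE M21 (GRCm38), later than the authors' annotation (release 91), and coding sequences were aligned globally with Biopython 1.88. Words of 31 bases were counted on the transcript strand. On the opposite strand Aph1a shares 11.9% of its words with Car14 and Notch1 7.10% with 0610009E02Rik, and whether the counting used strand is not given in the sources used here. Neither labels nor methods name a batch. Samples are separate biological replicates per the study's methods. The other presenilin gene is not reported here.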

Additional observations from a re-analysis of the deposited data

How the results depend on the processing

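The log2 fold change of Aph1b was 1.06 to 1.19 in 11 alternatives on the 6 samples and 1.08 to 1.27 when 1 sample was left out. It was among the called genes in 8 of those 11 alternatives, and not with quantile normalization (log2 fold change 1.19), without a variance trend (1.17) or with the replicate block (1.17). It was called in 1 of the 6 fits without 1 sample. Since Aph1b was chosen with this contrast known, nothing is read from these counts of calls. The number of genes with an adjusted p under 0.05 was 17 and moved to 6 with quantile normalization, 5 without a variance trend, 31 with the robust option, 9 with voom weights, 71 with DESeq2 and 2 with the replicate block. Across fits without 1 sample it went from 5 without Cripto KO replicate 2 to 31 without Control replicate 1. The cause was not tested. The replicate numbers share no stated origin and differ for Control between the study's tables, and deviations of same-numbered samples correlated at -0.21, -0.01 and -0.00 over genes, so they were not taken as pairs.

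The sum of Aph1b and Aph1c and the share of Aph1b kept their direction in all alternatives run. No log2 fold change of a member moved by more than the spread between replicates, but the sign changed for Aph1a in 6 of 17 alternatives, and for Notch1 and Notch2 in 2 of 17 each. Called pathway genes stayed at 0 in all 17 alternatives, which called only 2 to 71 genes over all, so nothing is read from it. With 5 samples, 0 of 8 pairs in the order of levels could pass, from the number of samples alone, against 6 with all samples. With the longest transcript 8 passed, in the changed order. Near Aph1b, an unadjusted p under 0.05 was found for 7 of 34 genes within 2 Mb (20.6%). It was found for 3 of 16 within 1 Mb (18.75%) and 13 of 73 within 5 Mb (17.8%), against 8.59% of all genes. All windows hold the member Aph1c, and that of 5 Mb also holds Adam10. Without 1 sample the number within 2 Mb went from 2 to 7. Depth limits Aph1b most, at 83 to 212 reads per sample.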
